A study of Mus musculus with 8 samples.

Results

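The chromatin around 6 genes that serve as markers of mouse pluripotency was followed from fibroblasts through reprogramming to embryonic stem cells. The genes were Dppa2, Dppa4, Dppa5a, Utf1, Tdh and Zfp42, 6 of the 21938 protein-coding genes of the annotation used here. They were taken by name, not by a threshold on their peaks, and every ATAC-seq peak that overlapped the gene body or the 50 kb to each side of it was collected. ATAC-seq cuts open DNA with a transposase, so that a peak marks accessible chromatin. There were 8 libraries in 4 groups of 2, and 1 peak list was deposited per group. They comprised embryonic fibroblasts of the mouse (MEFs), such cells on day 5 and on day 10 of reprogramming, and embryonic stem cells (ESCs). Reprogrammed cells had received retroviral pMXs vectors for the factors OCT4, SOX2, KLF4 and MYC (together OSKM) and a FLAG control vector, with days counted from the first infection, and were then kept in ESC medium with vitamin C. MEFs and ESCs had received no vector, and all 8 libraries were labelled wild type. The strain was given as C57BL/6J-OG2, which carries an Oct4-GFP reporter transgene, for every library but ESC replicate 1, labelled C57Bl6J. The labels placed ESCs on feeder fibroblasts in serum medium, whereas the study's methods placed the ESCs used for ATAC-seq on gelatin in 2i/L medium. What set ESCs apart from the remaining groups therefore cannot be told apart from an effect of the medium. OSKM cultures are mixtures in which only some cells reprogram. In such bulk samples, a site open in few cells and a site weakly open in many cannot be told apart.

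Pluripotent cells use a set of genes that fibroblasts keep silent. When the 4 factors are forced into fibroblasts, fibroblast genes shut down first and the full pluripotency network usually comes on late. Opening of a gene's start site and of its distal elements is a usual, though not sufficient, companion of its transcription. Dppa2 and Dppa4 lie next to each other and encode partner proteins with a SAP domain that bind chromatin in early embryos and ESCs. Utf1 encodes a chromatin-associated transcription factor of pluripotent cells, and Zfp42 encodes the zinc finger protein REX1, a classic ESC marker. Dppa5a encodes an RNA-binding protein with a KH domain. Tdh encodes threonine dehydrogenase, the mitochondrial enzyme by which mouse ESCs turn threonine into glycine and acetyl-CoA.

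List lengths were 56514 peaks for MEFs, 36219 for day 5, 35226 for day 10 and 48486 for ESCs. Read depth is not given by the lists, so list lengths may follow depth, and no spread between replicates can be computed because each group had 1 list. No test was therefore made, and intervals are 95% Wilson intervals that cover counting error only. The cell identities were checked by start-site peaks of marker genes. All 8 fibroblast markers (Prrx1, Twist1, Twist2, Snai2, Col1a1, Col1a2, Thy1 and Fn1) had such a peak in MEFs, against 6 at day 5, 4 at day 10 and 4 of them in ESCs. Of 6 ESC markers (Nanog, Esrrb, Tfcp2l1, Nr0b1, Prdm14 and Tbx3), 3 had one in the MEF list, 2 in each OSKM list and 5 in the ESC list. Over all protein-coding genes the shares were 60.0% for MEFs, 52.1% for day 5, 56.0% for day 10 and 55.8% for ESCs. The 4 fibroblast markers in ESCs and the 3 ESC markers in MEFs were near these shares, so the check of identity is a weak one. Whether feeder cells added to the ESC list was not tested.

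Sequences of sites on which the results turn are shown first, read from the GRCm38 (mm10) assembly. Each is 200 bases long and runs 5′ to 3′, and capitals mark exact matches on either strand to any of 5 short motifs, which were the octamer ATGCAAAT, the SOX core CATTGT, KLF sites CCACACCC or CCCCACCC, the ESRRB site TCAAGGTCA and the AP-1 site TGAGTCA. The 200 bases before the Zfp42 start (chr8:43306981-43307180, minus strand) lay inside an ESC peak and held 2 KLF matches. Those before the Dppa2 start (chr16:48303708-48303907, plus strand) lay inside the highest-scoring start-site peak of the 6 genes and held 1 AP-1 match. Those before the Utf1 start (chr7:139943589-139943788, plus strand) were reached by no peak of any list. The stretch before the inner start of Tdh (chr14:63500260-63500459, minus strand) was open on both OSKM days and in ESCs, and 61 of its bases are annotated as exon. The middle of the ESC peak that ranked highest among the 31 described here (chr8:43320961-43321160, plus strand) lay upstream of Zfp42. The middle of the single ESC-specific peak at Utf1 (chr7:139945743-139945942, plus strand) lay just past the gene's end. No match of one motif overlapped a match of another.
Zfp42 start: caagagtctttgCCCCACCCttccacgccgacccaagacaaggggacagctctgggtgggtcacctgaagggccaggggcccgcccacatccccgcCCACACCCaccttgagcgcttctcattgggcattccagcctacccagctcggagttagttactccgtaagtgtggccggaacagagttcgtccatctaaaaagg
Dppa2 start: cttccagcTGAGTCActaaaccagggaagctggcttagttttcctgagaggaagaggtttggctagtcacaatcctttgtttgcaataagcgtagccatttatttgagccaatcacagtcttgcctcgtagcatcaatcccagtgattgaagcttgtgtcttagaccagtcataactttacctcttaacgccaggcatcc
Utf1 start: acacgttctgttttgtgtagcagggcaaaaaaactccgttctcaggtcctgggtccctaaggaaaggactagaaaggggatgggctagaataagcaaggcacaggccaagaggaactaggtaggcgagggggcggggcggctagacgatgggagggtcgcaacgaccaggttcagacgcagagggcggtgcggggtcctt
Tdh inner start: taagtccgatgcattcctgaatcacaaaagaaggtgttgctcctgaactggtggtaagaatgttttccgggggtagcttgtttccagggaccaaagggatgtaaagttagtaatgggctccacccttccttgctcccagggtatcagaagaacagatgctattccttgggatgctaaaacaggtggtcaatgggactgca
Zfp42 distal peak: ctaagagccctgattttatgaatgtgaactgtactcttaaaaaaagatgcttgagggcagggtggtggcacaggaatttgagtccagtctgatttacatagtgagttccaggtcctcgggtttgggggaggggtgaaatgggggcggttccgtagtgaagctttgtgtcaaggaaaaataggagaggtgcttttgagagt
Utf1 downstream peak: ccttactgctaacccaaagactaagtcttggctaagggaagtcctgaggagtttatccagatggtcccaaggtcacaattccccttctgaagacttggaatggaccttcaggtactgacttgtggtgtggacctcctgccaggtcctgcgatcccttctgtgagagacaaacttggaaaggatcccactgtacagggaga

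Across the 6 genes the ESC list held the most peaks. Together the windows gave 13 distinct peaks from the MEF list, 8 from day 5, 12 from day 10 and 31 from the ESC list. The windows of Dppa2 and Dppa4 overlap and gave the same peaks, so the genes form 5 loci. In the same order of lists, the median number of peaks per gene was 1, 1, 1.5 and 6.5, against medians over all protein-coding genes of 5, 3, 3 and 4. Dppa2 and Dppa4 entered these medians as 2 genes although their peaks are the same. Counted by locus (Dppa2 and Dppa4, Dppa5a, Utf1, Tdh, Zfp42), MEFs had 0, 2, 8, 3 and 0 peaks and ESCs had 7, 7, 6, 5 and 6. Day 5 had 0, 0, 4, 2 and 2, and day 10 had 0, 2, 6, 3 and 1. Every one of the 6 genes exceeded the median of all genes in ESCs, and all but Utf1 were at or below it in the earlier lists. By ESC minus MEF peak number, at least the difference of Dppa2 and Dppa4 (7) was found for 0.884% of protein-coding genes, that of Zfp42 (6) for 1.6%, that of Dppa5a (5) for 3.18% and that of Tdh (2) for 21.2%. Utf1 had fewer peaks in ESCs than in MEFs, a difference of -2 that 82.1% of genes reached or exceeded. The median difference over all genes was 0. No MEF peak and at least 6 ESC peaks, a pair of limits set after the values had been seen, was met by 21 genes (0.0957%), and Dppa2, Dppa4 and Zfp42 were 3 of them. The outermost peak inside any window was a MEF peak 49.6 kb past Utf1, and the nearest one outside lay 55.8 kb from Tdh in the MEF and day 10 lists.

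**Figure D1:**
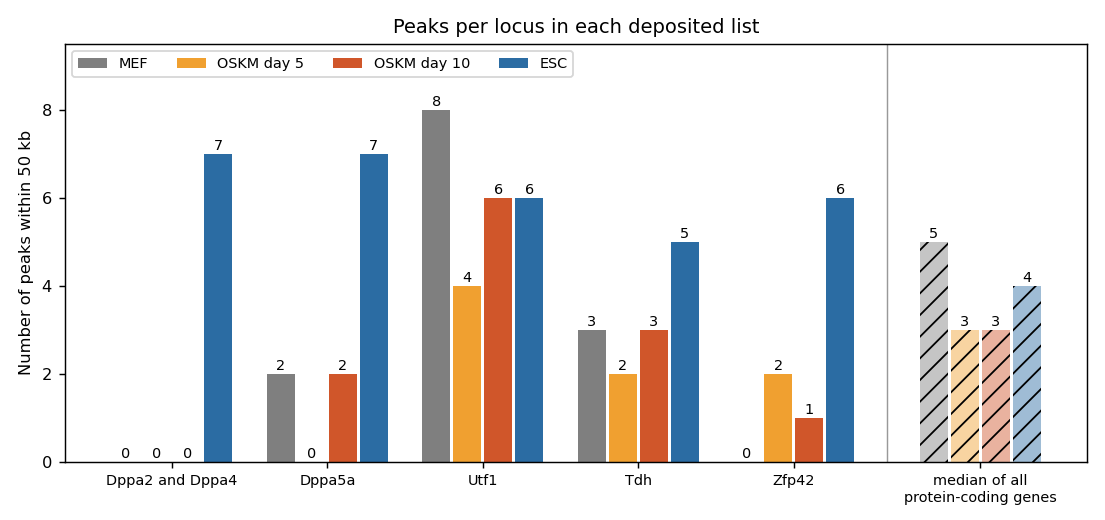
Number of peaks (vertical axis) within 50 kb of each gene, with 1 bar for each of the MEF, OSKM day 5, OSKM day 10 and ESC lists; Dppa2 and Dppa4 share their peaks, and hatched bars at the right are medians over 21938 protein-coding genes. The first 3 bars are at 0 at Dppa2 and Dppa4, and ESC bars reach 5 to 7 at every locus.

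**Figure D2:**
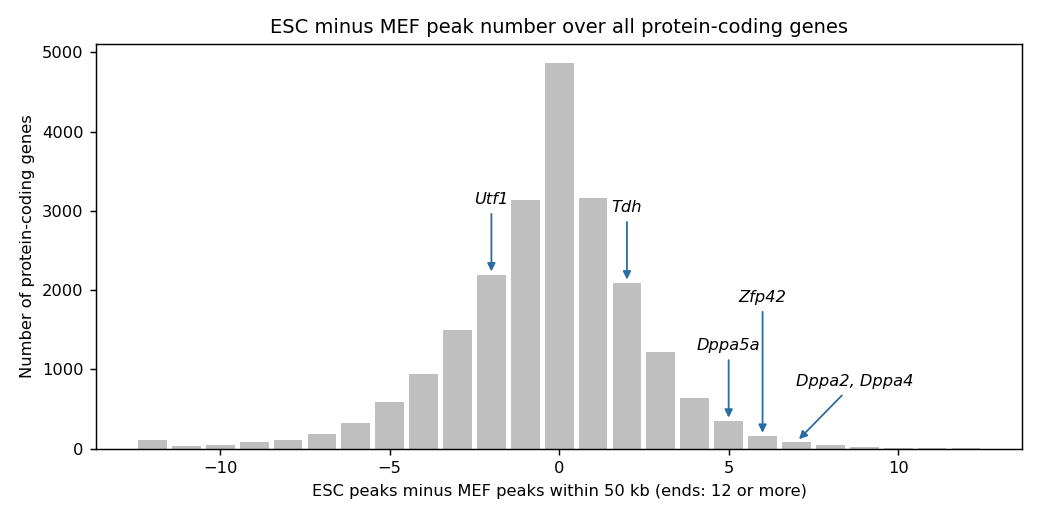
Histogram of ESC minus MEF peak number within 50 kb over all protein-coding genes (horizontal axis, peaks; vertical axis, genes; end bars collect 12 or more), with the 6 genes marked. Dppa2, Dppa4, Zfp42 and Dppa5a lie in the right tail at 7, 7, 6 and 5, and Utf1 lies left of 0.

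The second question was which ESC sites at these genes were already open by day 10. Of the 31 ESC peaks, 7 overlapped a MEF peak (22.6%, interval 11.4% to 39.8%), 5 a day 5 peak (16.1%, 7.09% to 32.6%) and 8 a day 10 peak (25.8%, 13.7% to 43.2%). Over all ESC peaks these shares were 39.1% for MEFs, 36.2% for day 5 and 39.1% for day 10. The backgrounds for MEFs and day 10 lay inside the intervals and that for day 5 just above, and peaks of one locus are not independent of each other. In no other list were 22 of the 31 peaks found (71.0%, 53.4% to 83.9%), against 51.8% of all ESC peaks. ESC peaks with no MEF peak over them are called ESC-specific here. They numbered 24 of 31, in a list in which 60.9% of peaks were of this kind. Of the 24, 1 was also a peak at day 5 (4.17%, 0.739% to 20.2%, background 10.3%) and 2 at day 10 (8.33%, 2.32% to 25.8%, background 12.5%), and these 2 were the only ones at either day (background 14.9%). Each background lay inside the interval of the 24 peaks. Both sites belonged to Tdh. At the other 5 genes 0 of 20 ESC-specific peaks were therefore open at either day. No interval is given for this 0, because Tdh was set apart after its values had been seen. The number of ESC-specific peaks open at either day changed with the settings, but its share stayed inside the interval of the 24 peaks. With all lists at the length of the shortest, 3 of 18 ESC-specific peaks (16.7%) were open at either day, the further one being the peak at the start of Ddx43 near Dppa5a, whose MEF peak ranked too low to stay. With an overlap of at least 50% of both peaks required, 1 of 25 (4.0%) was, and it was not at Tdh. It was the ESC peak inside Kndc1 near Utf1, chr7:139914331-139915873. The MEF peak shared 20.3% of its width and the day 10 peak 88.8%. At the Tdh sites, OSKM peaks shared at most 33.7% of the ESC peak. Every one of the 6 genes had an ESC-specific peak within 50 kb, as had 76.4% of protein-coding genes. Of the 6, 1 had one that was open by day 10, against 33.0% of the genes with any. The 6 genes had a median of 6 ESC-specific peaks, against 2 over all protein-coding genes, so the 33.0% is not matched for peak number.

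**Figure D3:**
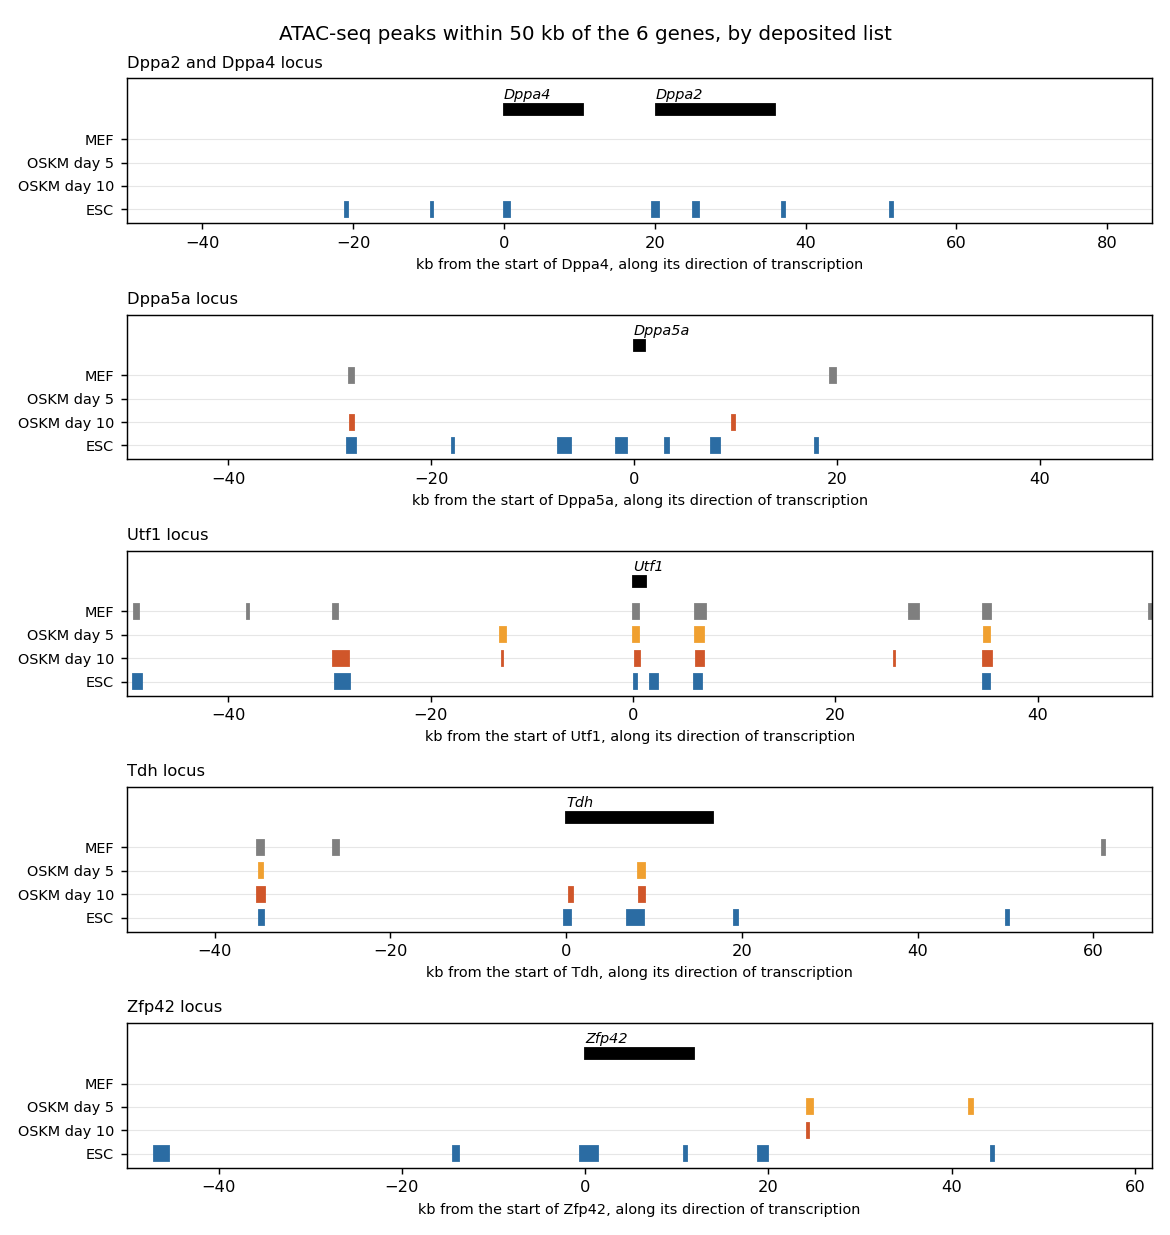
Peaks of the MEF, OSKM day 5, OSKM day 10 and ESC lists (rows) at the 5 loci, drawn to scale by distance in kb from the gene's start along its direction of transcription (from Dppa4 in the top panel); black boxes are gene bodies. The Dppa2 and Dppa4 panel has peaks in the ESC row only, and the peaks in the body of Tdh are stacked in the OSKM and ESC rows, with none in the MEF row.

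At the annotated start sites, 0 of the 6 genes had a MEF peak, 1 a day 5 peak, 1 a day 10 peak and 4 an ESC peak. Of all protein-coding genes, 60.0% had a start-site peak in the MEF list, 52.1% in the day 5 list, 56.0% in the day 10 list and 55.8% in the ESC list. Dppa2, Dppa4 and Zfp42 had one in ESCs and in no other list, a pattern of 570 genes (2.6%). Tdh had one in every list but that of MEFs, a pattern of 72 genes (0.328%). Dppa5a and Utf1 had none in any list, like 35.4% of genes. Of the 776 genes with a start-site peak in ESCs and not in MEFs, 23.5% had one at day 10, and Tdh was the 1 such gene of 4 here. With a peak within 1 kb counted instead, Dppa5a joined in ESCs and Utf1 in all 4 lists.

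**Figure D4:**
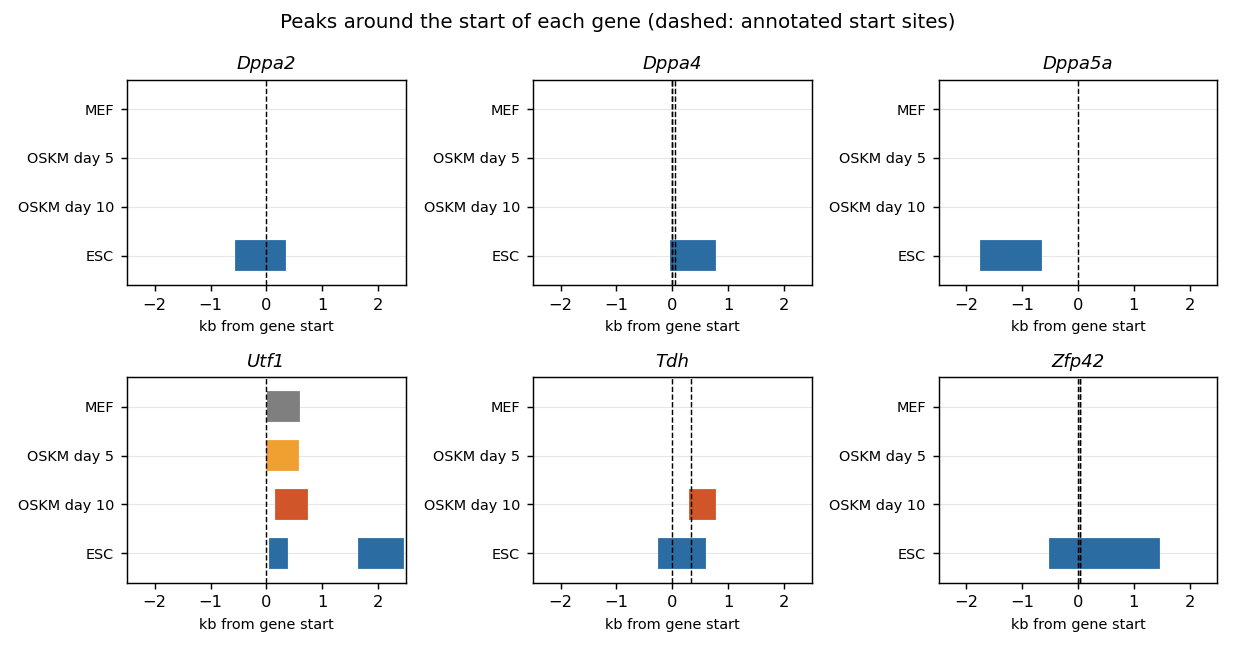
Peaks of the 4 lists (rows) within 2.5 kb of each gene's start (horizontal axis, kb from the start along transcription); dashed lines are annotated start sites. ESC peaks cross the start line of Dppa2, Dppa4, Tdh and Zfp42, the Dppa5a peak ends short of it, and at Utf1 all 4 lists have a peak that begins just after it.

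The pair Dppa2 and Dppa4 had no peak before the ESC state. Dppa2 (ENSMUSG00000072419.5) spans chr16:48303908-48319723 and Dppa4 (ENSMUSG00000058550.15) spans chr16:48283733-48294237, both on the plus strand, with 9.67 kb between the genes. In MEFs the peak-free stretch around their start sites measured 742.6 kb, a length exceeded at 7.57% of protein-coding genes. It measured 277.5 kb at day 5 and 277.3 kb at day 10, exceeded at 15.8% and 18.4% of genes. These shorter stretches were bounded by OSKM peaks that lay inside the stretch without MEF peaks. None of those peaks came closer to any of the 7 ESC peaks than 98.85 kb, the distance at day 10.

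The 7 ESC peaks of the pair differed in strength. The highest-scoring one, chr16:48303356-48304238, covered the 5′ start site of Dppa2 and 299 bp of its untranslated exon sequence, with a fold enrichment of 4.38 and rank 2367 in the list, in its top 4.88%. Fold enrichments are the authors' values, and since peak names point to replicate 1 they may describe that replicate alone. The Dppa4 start-site peak, chr16:48283720-48284492, reached a fold of 3.29 and rank 23150. It began 13 bp ahead of the gene, and 651 bp of it were intronic. A further peak, chr16:48308854-48309580, lay in an intron of Dppa2 with its centre 5.31 kb past the start (fold 3.17), and repeat-masked sequence made up 53.8% of it. The remaining 4 were outside both genes and had folds of 2.49 to 3.39, and 1 of them, chr16:48262700-48263084, overlapped the pseudogene Gm49770 by 75 bp. By score, both start-site peaks ranked above these 4, whose ranks ran from 33115 to 48163, whereas by fold 1 of the 4 exceeded the Dppa4 start-site peak. No other gene had a start site under a peak there.

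At Zfp42 (ENSMUSG00000051176.6, chr8:43295063-43306980, minus strand), the OSKM lists held peaks, but none at an ESC site. MEFs had 0 peaks in the window, day 5 had 2, day 10 had 1 and ESCs had 6. The peak over the 3 start sites, chr8:43305536-43307482, was 1947 bp wide, the widest of the 31 (fold 3.32, rank 12180). The strongest was chr8:43320696-43321425, intergenic and centred 14.08 kb upstream, with a fold of 7.35 and rank 645, in the top 1.33% of the list. An ESC peak inside the protein-coding sequence, chr8:43295825-43296233, covered 409 bp of exon and had a fold of 2.49. The other 3 were intergenic, and 1 of them, chr8:43352352-43353976, consisted of repeat-masked sequence to 95.9%. Folds among the 6 ran from 2.20 to 7.35, so the distal upstream peak stood well above the others.

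The OSKM peaks at Zfp42 lay downstream of the gene. At day 5 they were chr8:43264610-43265133 (fold 5.05, centre 42.11 kb past the start) and chr8:43282140-43282740 (fold 3.83, 24.54 kb past it). At day 10 the list held chr8:43282513-43282727 (fold 2.88), which lies within the latter site. Neither site overlapped a MEF or an ESC peak. The nearest ESC peaks were 1894 bp and 4323 bp away from the 2 day 5 peaks. Around the Zfp42 start the peak-free stretch measured 259.5 kb in MEFs, 169.2 kb at day 5 and 723.7 kb at day 10, and at day 10 only 9.19% of genes had a longer one. No other annotated gene lies in the window.

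Tdh was the gene of the 6 at which ESC-specific sites were open during reprogramming. It is ENSMUSG00000021953.14, chr14:63492347-63509092 on the minus strand, with 4 annotated start sites. MEFs had 3 peaks in the window, day 5 had 2, day 10 had 3 and ESCs had 5, and none of the 3 MEF peaks touched the gene. An inner site was found in every list but that of MEFs. It was chr14:63500157-63500881 at day 5 (fold 4.33), chr14:63500165-63500740 at day 10 (fold 3.68) and chr14:63500238-63502146 in ESCs (fold 3.42). These peaks cover the start of a transcript annotated for nonsense-mediated decay at position 63500259, 8.83 kb inside the gene from its main protein-coding start. The day 5 and day 10 peaks shared 644 bp and 503 bp with the ESC peak, 33.7% and 26.3% of its width. The ESC peak thus extended farther towards the main start than the OSKM peaks did.

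The main start of Tdh, at position 63509092, was under a peak in ESCs only. That peak was chr14:63508505-63509326 (fold 3.70, rank 12710). At day 10, chr14:63508326-63508774 (fold 2.90, in the lowest 10% of its list, rank 31872 of 35226) ended 317 bp short of that start and covered the start of a non-coding transcript at 63508756. It shared 270 bp with the ESC peak, 32.8% of it. At day 5 the nearest peak was the inner one, 8210 bp away, and in MEFs the nearest lay 25812 bp away. Counted at the 5′ end of the gene alone, Tdh therefore had a start-site peak in ESCs and in no other list. The 5 ESC peaks further included the shared start of the neighbour Mtmr9, chr14:63543436-63544024, a peak in all 4 lists with the highest fold at this locus (6.31).

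Dppa5a had ESC peaks on both sides and none on the gene. The gene (ENSMUSG00000060461.5, chr9:78367052-78368177, minus strand) is 1126 bp long. MEFs had 2 peaks in the window, day 5 had 0, day 10 had 2 and ESCs had 7. The ESC peak nearest to the start, chr9:78368844-78369918, ended 666 bp upstream of it and had a fold of 2.88. The highest-scoring one, chr9:78374412-78375657, was centred 6.86 kb upstream, between Dppa5a and the oocyte gene Ooep, with a fold of 4.10 and rank 1766 (top 3.64%). Downstream, an ESC peak was centred 3.29 kb past the start (fold 2.38), one 8.05 kb past it (fold 2.85) and one 18.04 kb past it, in an intron of Gsta2, a glutathione S-transferase gene (fold 4.24).

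Only 1 of the 7 ESC peaks at Dppa5a was found in another list. It was chr9:78395590-78396426, at the start of Ddx43 and the antisense gene 4930542C12Rik, and it overlapped a MEF and a day 10 peak. The other day 10 peak, chr9:78358185-78358475 (fold 2.95), lay 1187 bp from an ESC peak without touching it. A single further MEF peak, chr9:78348291-78348881, lay in an intron of Gsta2. The body of Dppa5a has 2 near-identical copies on the same chromosome, the pseudogenes Dppa5b (chr9:78245487-78246600, 98.2% identity over 1119 bp) and Dppa5c (chr9:78271935-78273046, 98.6% over 1116 bp). No list had a peak on any of the 3. Only uniquely mapping reads had been kept by the authors, and the part of these copies in the lack of a peak was not tested. The other 5 genes had no such copy of their body or start region of at least 500 bp at 90% identity or more.

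Utf1 was the gene of the 6 with a peak within the gene in every list. The gene (ENSMUSG00000047751.9, chr7:139943789-139945112, plus strand) had 8 MEF peaks, 4 day 5 peaks, 6 day 10 peaks and 6 ESC peaks within 50 kb. The peak within the gene was chr7:139943816-139944372 in MEFs (fold 3.70), chr7:139943805-139944357 at day 5 (fold 3.29), chr7:139943963-139944524 at day 10 (fold 2.53) and chr7:139943856-139944156 in ESCs (fold 3.01). Between the start site and the peak were 26, 15, 173 and 66 bp, so no list had a peak over the start itself. The day 10 peak ranked 34857 of 35226 in its list, near its end.

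The single ESC-specific peak at Utf1 was chr7:139945454-139946230. It began 341 bp past the end of the gene, and the nearest peaks of the other lists were 1081 bp away in MEFs, 1096 bp at day 5 and 929 bp at day 10. This peak and the ESC peak within the gene carried the same replicate 1 peak name, and thus the same fold of 3.01. Both may be parts of a single replicate 1 peak that also reaches the site open in MEFs. The downstream peak therefore counts as ESC-specific only as a separate interval. The other 5 ESC peaks overlapped MEF peaks, among them those at the starts of Kndc1, of the non-coding gene Gm16201 and of 6430531B16Rik. Gm16201 and 6430531B16Rik had a start-site peak in all 4 lists, whereas Kndc1 had one in the MEF and ESC lists. A site inside Kndc1, chr7:139930675-139931269 at day 5 and chr7:139930892-139930986 at day 10, was in neither the MEF nor the ESC list. Late opening was thus not shared by all 6 genes. Tdh had an ESC-specific site open by day 5 when an overlap of 1 bp was enough, and Utf1 was open beside its start in MEFs.

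In strength, ESC peaks of the 6 genes were not far from the list as a whole. Their median fold was 3.17, against 3.48 for all ESC peaks, and 16 of 31 fell in the upper 50% by score, 4 in the top 10% and 4 in the lowest 10%. Their median width was 730 bp, against 610 bp. Of the 31 peaks, 8 lay at least partly in the body of one of the 6 genes, 9 in other genes only and 14 between genes. Peaks over a start site of the 6 genes numbered 5, and 5 more covered the start of a neighbour. All 5 neighbour start peaks overlapped a MEF peak, and none of the 5 member start peaks did. Of the 12234 protein-coding genes with a start-site peak in ESCs, only 776 had none in MEFs, a count by gene and not by overlap of peaks. The Ddx43 start was under an ESC peak but not under the MEF peak, which covered the start of 4930542C12Rik. The member start peaks included the inner and the main one of Tdh.

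**Figure D5:**
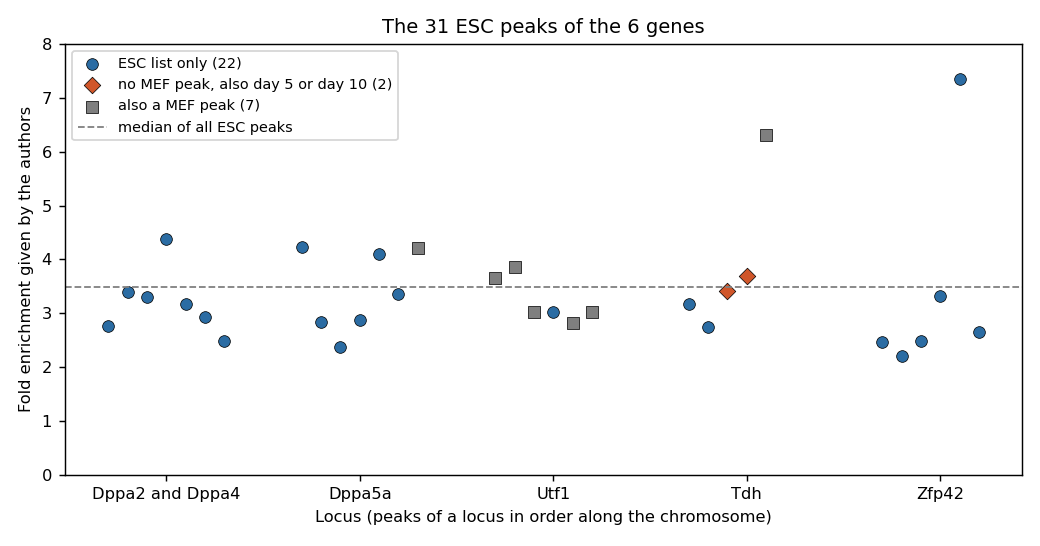
Fold enrichment given by the authors (vertical axis) of the 31 ESC peaks by locus, in order along the chromosome; symbols separate 22 peaks in the ESC list only, 2 with no MEF peak that were also listed at day 5 or day 10, and 7 that overlap a MEF peak, and the dashed line is the median of all ESC peaks. The distal Zfp42 peak is highest at 7.35, and both diamonds are at Tdh.

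The sequences of the sites were then compared with those of all sites of their kind. In the 200 bp around the midpoint of each ESC peak, the KLF motif was found in 5 of 31 windows (16.1%) against 8.1% of all 48486 ESC windows, and the SOX core in 2 (6.45%) against 12.3%. The AP-1 motif was found in 1 (3.23%) against 3.73%. The octamer and the ESRRB motif were found in 0 windows, against 2.36% and 1.14%, which says only that these letters were not in the windows. The KLF matches were at Dppa5a (1), Utf1 (1) and Tdh (3). At Tdh the windows of the inner and the main start-site peak each held 1, outside the stretches that the day 10 peaks covered. Searched over their whole width, the inner Tdh peak and the Zfp42 start-site peak each held 1 octamer match and 2 KLF matches. The distal Zfp42 peak held 2 KLF matches outside its window. The octamer was in no other whole peak of the 31, and the ESRRB motif was in none. No share over all ESC peaks was computed for whole peaks. Among the 200 bases before the start, read for the 5 genes other than Dppa5a, KLF matches were found at Zfp42, 1 of 5 genes against 11.4% of 21933 genes, and an AP-1 match at Dppa2, 1 of 5 against 3.21%. The octamer, the SOX core and the ESRRB motif were in none of the 5, against 1.22%, 7.32% and 0.36% of genes. These bases were 38.0% G and C at Dppa4, 45.5% at Dppa2, 55.0% at Tdh, 58.0% at Utf1 and 60.5% at Zfp42, around a median of 55.0% over all genes. The observed over expected CpG ratio was 0.292 at Dppa2, 0.282 at Dppa4, 0.268 at Tdh, 0.504 at Zfp42 and 0.724 at Utf1, with a median over all genes of 0.505. Utf1 was the only one of the 5 above that median.

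Other pluripotency genes gave a frame for these counts. Of 18 such genes, 13 had a start-site peak in ESCs, 9 in MEFs and 6 and 9 on day 5 and day 10. Their windows held a median of 8 ESC peaks and 3 MEF peaks. Of the 5 with a start-site peak in ESCs and not in MEFs, 1 had one at day 10, as had 1 of 4 among the 6 genes. An ESC-specific peak that was open at day 5 or day 10 lay within 50 kb of 11 of the 18, against 1 of the 6. Both counts are by gene, so a peak shared by neighbouring genes counts for each, and the 6 genes form 5 loci. Nr0b1, an X-linked nuclear receptor gene, had 0, 0, 0 and 3 peaks in the MEF, day 5, day 10 and ESC lists, and Nr5a2, another nuclear receptor gene, had 2, 0, 1 and 9, with none of its 9 ESC-specific peaks open by day 10. Nanog, by contrast, had 6, 6, 7 and 10 peaks, and 2 of its 6 ESC-specific peaks were open at day 10. These 3 genes were picked from the list after their values had been seen.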

How the data were processed

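ATAC-seq was done on 8 libraries, 2 from each of MEFs, OSKM day 5, OSKM day 10 and ESCs, grouped by sample title. Per the labels, alignment was to mm10 with bowtie2 (2.2.0 in the submitters' processing notes, another version in the methods). Reads of low mapping quality, reads with more than 1 mapping position and mitochondrial reads had been discarded, with quality thresholds that differ between labels and methods. The peak caller, its settings and any correction for transposase insertion offset are not given in the sources used here.

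The authors deposited 1 peak list per group in a broad-peak layout with no header. Each interval has, as deposited, a score, a ratio of fold enrichment, the −log10 of a p-value (not used here) and the −log10 of a q-value. The lists are named as intersections and peak names are those of replicate 1, so a value may belong to a whole replicate 1 peak of which the interval is a part. Some replicate 1 peaks were cut into 2 or more intervals (404 for MEFs, 80 for day 5, 85 for day 10 and 157 for ESCs). The values were used only to describe or rank peaks within a list. Depth is unknown, and no column belonged to other samples (0 columns).

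Genes, start sites of all transcripts, exons and introns came from GENCODE M21, and sequences from GRCm38. A peak belonged to a gene when it overlapped the gene body or 50 kb to each side by at least 1 bp, and peaks of 2 lists were shared when they overlapped by at least 1 bp. Counts stand beside the same count over all protein-coding genes or all ESC peaks. Intervals are Wilson intervals at 95%. Motifs were searched as exact letters on both strands (the stretch before the Dppa5a start is not reported here), and copies of the genes with blastn 2.17.0 (at least 90% identity over 500 bp). Python 3.11.15, pandas 2.3.3, numpy 2.4.6, scipy 1.17.1 and matplotlib 3.10.9 were used, and the overlap routines were tested on simulated data. The genes named are the 6 genes, neighbours with a start site under a peak in their windows or that a named peak overlaps, the marker genes, and 18 other pluripotency genes given by counts. The genes and lists were chosen with earlier results of these data known. Alternatives were other windows, a stricter threshold, lists of equal length, other overlaps and other definitions of a start site.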

Additional observations from a re-analysis of the deposited data

How the results depend on the processing

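No paired analysis was possible because the 2 replicates of each group were deposited as 1 list, and for the same reason no replicate could be left out. Of 55 alternative values, 40 stayed within 1.5 times the reported count or inside the interval of the reported share, and 15 moved. Windows of 20 kb gave 3 MEF, 5 day 5 and 7 day 10 peaks, and 9.09% of ESC peaks over a MEF peak, and windows of 100 kb gave 25 MEF peaks. The higher-scoring 50% of each list gave 5 MEF, 5 day 5, 4 day 10 and 16 ESC peaks. Lists cut to the 35226 highest-scoring peaks gave 7 MEF peaks. Genes with a start-site peak numbered 0 at day 5 and 0 at day 10 at the 5′ end of the gene alone, and 1 in MEFs, 2 at day 5 and 2 at day 10 within 1 kb of a start. The ESC list had the most peaks under each of these windows and thresholds. With an overlap of at least 50% of both peaks required, no ESC-specific peak at Tdh was open at day 5 or day 10. Counts of peaks depend on depth, which is unknown, and a site missing from a list may be open below the authors' threshold.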
